A study of Mus musculus with 855 samples.

Results

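Single starburst amacrine cells of the postnatal day 8 (P8) retina were split by which of a pair of genes each cell contained. Cells were chosen by their own values of these genes: *Fezf1* cells held at least 1 sequenced fragment of *Fezf1* and none of *Rnd3*, and *Rnd3* cells held the reverse. Of 172 P8 cells among the 855 cells of the series, 84 were *Fezf1* cells and 66 were *Rnd3* cells, 150 in all. One further cell held both genes and 21 cells held neither. The cells came in 2 sets, named a and b in the labels, with 38 *Fezf1* and 32 *Rnd3* cells in set a and 46 *Fezf1* and 34 *Rnd3* cells in set b. All groups shared the genotype *Chat* Cre/+; ROSA-LSL tdTomato/+ on C57BL/6, so tdTomato marked cells in which the *Chat* gene had driven Cre, at that age or earlier. Cells were sorted one by one for this fluorescence and each was amplified with Smart-seq2, a full-length method without molecular identifiers that does not keep strand. Retinas of several mice were pooled at each age and the labels do not name the mouse of a cell. Each group was therefore 1 sample, no test was possible, and the ratios are given in set a and set b side by side. What either set represents is not stated in the labels, and both may come from the same pool, so the spread between them may be technical.

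Starburst amacrine cells are the cholinergic interneurons of the retina, and they release both acetylcholine and GABA. They are known for giving direction-selective ganglion cells their preference for motion. ON cells sit in the ganglion cell layer and OFF cells in the inner nuclear layer, and their dendrites fill separate layers of the inner plexiform layer. *Fezf1* encodes a zinc finger transcription factor known from ON starburst cells. *Rnd3* encodes an atypical small GTPase that opposes actomyosin contraction. The question addressed here was which other genes differ between cells that contain one or the other.

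Both genes that chose the cells are described without a test. In *Fezf1* cells the median level of *Fezf1* (chr6:23245044-23248362, GRCm38) was 78.9 FPKM in set a and 70.8 FPKM in set b. In *Rnd3* cells the median level of *Rnd3* (chr2:51130438-51149111) was 389 FPKM in set a and 322 FPKM in set b. Just inside the limit, the 5 lowest cells held 1, 1, 11, 12 and 17 fragments of *Fezf1*, and the lowest *Rnd3* cells held 1, 66, 92 and 160 fragments of *Rnd3*. Every cell outside the limit held exactly 0. Depth ranged from 156785 to 1162370 fragments in *Fezf1* cells and from 358185 to 1643655 in *Rnd3* cells, with medians of 577188 and 595927. *Rnd3* cells had more detected genes (median 6616 against 6194 per cell), whereas *Fezf1* cells had the larger sum of FPKM (median 677602 against 633491). Starburst cell genes were present in both groups, with values given below. Markers of cones, bipolar cells, ganglion cells and microglia had a median summed level of 0 FPKM in every group and set, and no gene of these lists was in more than 9.38% of cells. *Th*, of the list for other amacrine cells, was in 15.8% and 21.7% of *Fezf1* cells and in 6.25% and 2.94% of *Rnd3* cells of sets a and b. The part of these transcripts in the results was not tested. *Calb1* and *Kdr*, listed for horizontal and endothelial cells, were in at least 87% of cells of each group and set, whereas the other markers of those lists were in few or none. Of the set b cells, 6 were labelled as filtered out by the submitters and were kept here; without them 110 and 64 genes were called in place of the 108 and 63 given below.

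A cell of each group stood apart from its label. One set a *Rnd3* cell held 1 *Rnd3* fragment, no *Tenm3* or *Igsf21*, and *Slit2* at 648, *Pdyn* at 732 and *Synpr* at 1681 FPKM, each the highest value among the *Rnd3* cells of its set. One set b *Fezf1* cell held 1 *Fezf1* fragment, 2427 detected genes, no *Chat* and an FPKM sum of 2409200. Leaving out both cells gave 118 genes higher in *Fezf1* cells, 101 of them among those called with all cells, and 63 higher in *Rnd3* cells, 61 of them shared. Where leaving them out moved the mean of a gene described below by more than 1.5 times, both values of the mean or of the log2 ratio are given.

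Genes were compared where the mean level reached 5 FPKM in either group, which left 9238 genes. A gene was called when the mean levels, after adding 1 FPKM, differed at least 2-fold in the same direction in both sets and at least 25% of the cells of the higher group held a fragment in each set. By this rule 108 genes were higher in *Fezf1* cells, 1.17% of the genes compared. Another 63 genes were higher in *Rnd3* cells, 0.682% of the genes compared. In 1 set taken by itself, 603 genes in set a and 707 in set b were at least 2-fold higher in *Fezf1* cells, and 292 and 329 were at least 2-fold higher in *Rnd3* cells. The median log2 ratio over all genes compared was 0.15 in set a and 0.13 in set b. Of these genes, 41.5% were higher in *Fezf1* cells in both sets, against 17.6% that were lower. The division of the calls moved with this shift. *Fezf1* cells had 63.2% of the calls as computed, 51.7% after the median was subtracted (78 and 73 genes) and 54.2% after each cell was rescaled to the same FPKM sum (84 and 71 genes). After scaling by the fragments of each cell instead, the counts were 90 and 87, or 50.8% on the *Fezf1* side. No gene called in one direction was called in the other under these scalings. The annotation gives 105 of the 108 and 57 of the 63 genes as protein coding, with antisense and long noncoding RNAs among the rest. Exons of 34 and 21 of them overlap another gene, on the opposite strand in 27 and 20, and the reads of such pairs cannot be told apart where they overlap.

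**Figure D1:**
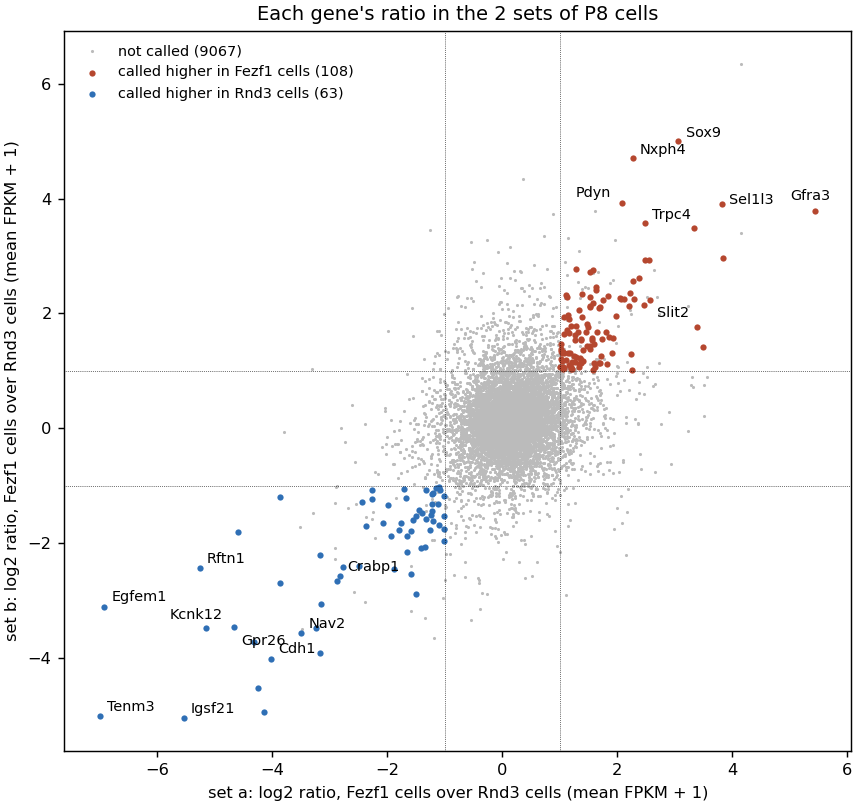
Each point is 1 of the 9238 genes compared, with its log2 ratio of mean FPKM + 1 (*Fezf1* cells over *Rnd3* cells) in set a on the x axis and in set b on the y axis; dotted lines mark 2-fold. The 108 genes called higher in *Fezf1* cells (red) lie at the upper right and the 63 called higher in *Rnd3* cells (blue) at the lower left, where *Tenm3* and *Igsf21* lie below -5 in both sets.

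The 12 leading genes of the *Rnd3* side, by the smaller ratio of both sets, were *Igsf21*, *Tenm3*, *Gm19744*, *Gm15551*, *Cdh1*, *Rbm43*, *Nav2*, *Kcnk12*, *Gpr26*, *Abat*, *Chl1* and *Egfem1*. *Igsf21* (chr4:140026846-140246784, minus strand), an immunoglobulin superfamily protein that organises inhibitory synapses, was at 0, 107 and 357 FPKM (lowest, median and highest) in the *Rnd3* cells of set a and at 0, 156 and 374 FPKM in those of set b. Only 3 of 84 *Fezf1* cells held a fragment, at up to 132 FPKM. The mean levels after adding 1 FPKM differed 46.4-fold in set a and 33.2-fold in set b. *Tenm3* (chr8:48227682-48843951, minus strand), a teneurin that binds partners across the synaptic cleft, was at 0, 127 and 235 FPKM in the *Rnd3* cells of set a and at 0, 38.6 and 125 FPKM in those of set b. Among *Fezf1* cells it reached 2.1 FPKM in set a and 18.5 FPKM in set b, with a median of 0. Except for 1 cell, every *Rnd3* cell of set a lay above every *Fezf1* cell of set a for *Tenm3*, and 27 of 34 did so in set b. The single *Rnd3* cell of set a without *Tenm3* was the cell with 1 *Rnd3* fragment. *Gm19744* starts within the 5′ end of *Tenm3* on the opposite strand, so reads of both genes cannot be told apart in these libraries where they overlap.

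*Cdh1* (chr8:106603351-106670246), which encodes E-cadherin, was present in 50.0% of *Rnd3* cells in set a (exact 95% interval 31.9 to 68.1%) and 52.9% in set b (35.1 to 70.2%). None of the 84 *Fezf1* cells held it, which allows a share of up to 3.57%. Such intervals and limits cover counting error only. *Chl1*, a close relative of the adhesion molecule L1, was in 34.4% and 38.2% of *Rnd3* cells of sets a and b and in 0 of 84 *Fezf1* cells. In the same direction, *Egfem1* (an EGF-like domain protein) had median levels of 95.8 and 73.9 FPKM in *Rnd3* cells against 0 in both sets of *Fezf1* cells. The sets differed for this gene, since 0 of 38 *Fezf1* cells of set a held it but 4 of 46 did in set b, one of them at 383 FPKM.

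*Gpr26*, an orphan G protein-coupled receptor, was in 31 of 32 *Rnd3* cells of set a and 27 of 34 of set b, with medians of 17.5 and 8.38 FPKM, and in none of the *Fezf1* cells. The potassium channel subunit *Kcnk12* was in 27 of 32 and 21 of 34 *Rnd3* cells, at medians of 25.2 and 15.1 FPKM, against 0 of 38 and 4 of 46 *Fezf1* cells. *Nav2*, which encodes a microtubule-associated protein of neurite growth, was in 90.6% and 64.7% of *Rnd3* cells and in 1 cell of each *Fezf1* set, and its mean level after adding 1 FPKM was 11.3-fold and 12-fold higher in *Rnd3* cells. *Abat*, the enzyme that breaks down GABA, was in 31.2% and 29.4% of *Rnd3* cells and in 0 of 84 *Fezf1* cells. *Gm15551* lies within an intron of *Camk2d* on its opposite strand and was at mean levels of 16.6 and 29.8 FPKM in *Rnd3* cells. *Camk2d*, a calcium- and calmodulin-dependent kinase, was itself called on the *Rnd3* side (medians of 157 and 156 FPKM against 65.7 and 40.8 FPKM), and without strand the reads of *Gm15551* cannot be told from its unspliced transcripts. *Rbm43*, an RNA-binding protein, averaged 19 and 33.3 FPKM in *Rnd3* cells against 0 and 1.57 FPKM in *Fezf1* cells.

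In total, 9 of the 63 genes called higher in *Rnd3* cells were at 0 in all 84 *Fezf1* cells: *Gm19744*, *Gm15551*, *Cdh1*, *Gpr26*, *Abat*, *Chl1*, *1700057H21Rik*, *Sema3e* and *Gm13499*. No fold is given for them. They passed the filters through *Rnd3* cells alone, and the same count over all genes compared is not given, so no difference between the directions is read from it. Of these genes, *1700057H21Rik* and *Gm13499* lie within 1 Mb of *Rnd3*, which chose the cells. None of the 108 genes called higher in *Fezf1* cells was at 0 in all 66 *Rnd3* cells, where a count of 0 would allow a share of up to 4.55%.

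The 12 leading genes of the *Fezf1* side, by the smaller ratio of both sets, were *Sel1l3*, *Gfra3*, *Rasgrp1*, *Sox9*, *Pmfbp1*, *Pcsk2*, *Trpc4*, *Spon1*, *Lima1*, *Fam210b*, *Nxph4* and *Nptx1*. *Gfra3*, the artemin receptor of the GDNF family, was in 60.5% of *Fezf1* cells of set a (43.4 to 76%) and 52.2% of set b (36.9 to 67.1%), at medians of 33.5 and 20.6 FPKM. It was in 0 of 32 and 2 of 34 *Rnd3* cells. *Sox9* (chr11:112782224-112787760), a transcription factor of progenitors and glia, was at 0, 40.9 and 168 FPKM in the *Fezf1* cells of set a and at 0, 34.2 and 126 FPKM in those of set b. Its median was 0 in both sets of *Rnd3* cells, with highest values of 67 and 10.1 FPKM, and the means after adding 1 FPKM differed 8.36-fold and 32.1-fold. The set a mean of *Rnd3* cells was 5.05 FPKM with all cells and 3.06 FPKM without the cell of 1 *Rnd3* fragment, and the log2 ratio of *Sox9* went from 3.06 to 3.64. *Sox9* is also on the list of Mueller glia markers. Of the others on that list, *Rlbp1*, *Slc1a3*, *Aqp4* and *Vim* averaged between 0 and 2.1 FPKM in every group and set. The glial enzyme *Glul* averaged 27.9 and 12.8 FPKM in *Fezf1* cells and 17.2 and 18.3 FPKM in *Rnd3* cells, and the lipid carrier *Apoe* averaged 11.2 and 3.04 FPKM against 6.31 and 0.599 FPKM. Neither was called. Summed over the 7 markers, the median level was 82.1 and 46.1 FPKM in *Fezf1* cells and 17.3 and 4.80 FPKM in *Rnd3* cells. This sum includes *Sox9* itself, so its difference between the groups is not separate from the *Sox9* result. The part of glial transcripts in the *Sox9* result was not tested.

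*Pcsk2*, a convertase that cleaves prohormones, was in 38 of 38 and 45 of 46 *Fezf1* cells, at medians of 78.8 and 74.7 FPKM against 0 and 1.02 FPKM in *Rnd3* cells, and its mean after adding 1 FPKM was 5.86-fold and 7.63-fold higher. Exons of *Pcsk2* overlap a pair of opposite-strand transcripts. *Nptx1*, a secreted pentraxin that gathers AMPA receptors, had medians of 194 and 63.8 FPKM in *Fezf1* cells against 23.7 and 10.6 FPKM in *Rnd3* cells, a 4.86-fold and 4.75-fold difference of the means. In both groups its median level was higher in set a than in set b. *Nxph4*, a neurexophilin, was in 31.6% and 30.4% of *Fezf1* cells, with a ratio that was uneven between sets (log2 of 2.27 and 4.71). *Spon1*, an extracellular matrix protein, averaged 22.4 and 28.1 FPKM in *Fezf1* cells against 3.22 and 2.82 FPKM in *Rnd3* cells.

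*Trpc4*, a calcium-permeable cation channel, was in 84.2% and 82.6% of *Fezf1* cells, at medians of 34.2 and 25.3 FPKM, and in 21.9% and 8.82% of *Rnd3* cells. *Sel1l3* had the largest smaller ratio of both sets (log2 of 3.81 and 3.91), from means of 17.1 and 14 FPKM in *Fezf1* cells against 0.289 and 0 FPKM. *Rasgrp1*, an exchange factor that activates Ras, averaged 16.9 and 10.3 FPKM against 0.773 and 0 FPKM. *Pmfbp1* was in 57.9% and 60.9% of *Fezf1* cells and in 0% and 8.82% of *Rnd3* cells. *Lima1*, an actin-binding protein, was in 31.6% and 26.1% of *Fezf1* cells, near the minimum share of the rule. *Fam210b*, a mitochondrial protein, had medians of 19.2 and 18.3 FPKM in *Fezf1* cells against 0 in both sets of *Rnd3* cells.

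**Figure D2:**
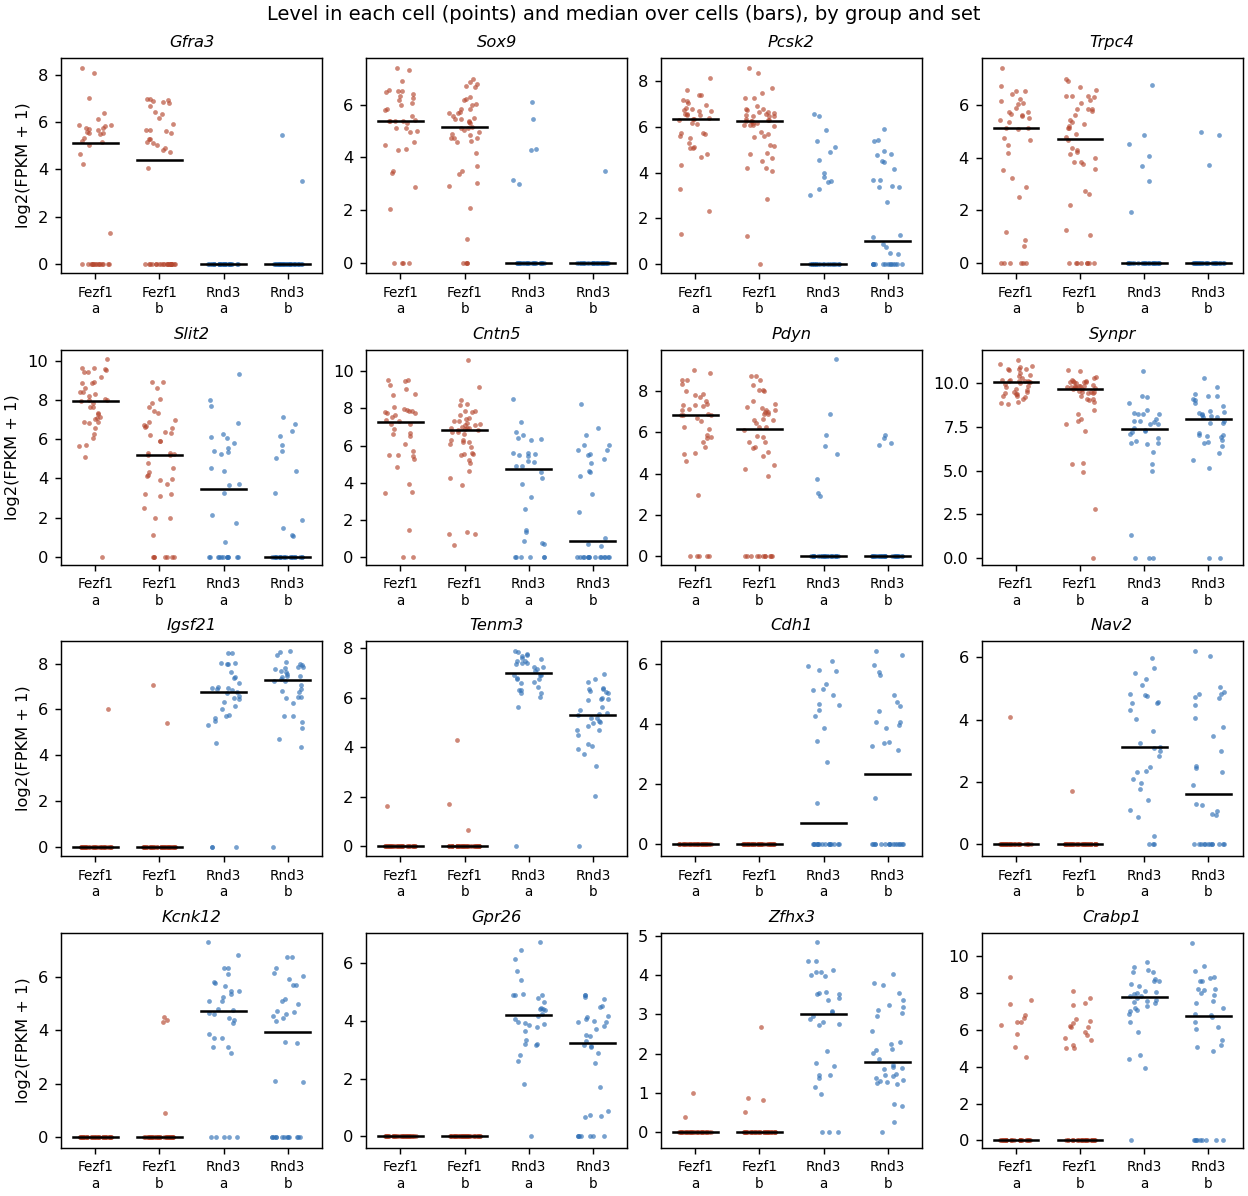
Points are single cells, at the log2(FPKM + 1) level of 16 genes on the y axis, with *Fezf1* cells (red) and *Rnd3* cells (blue) of sets a and b along the x axis; bars are medians over the cells. The top 8 genes were called higher in *Fezf1* cells and the lower 8 in *Rnd3* cells; *Gpr26* and *Cdh1* are at 0 in every *Fezf1* cell, whereas *Cntn5*, *Slit2* and *Synpr* overlap widely between the groups.

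Genes were also counted by lists, which were written with earlier results of these data known. Each count of called members stands beside 1.17% of all genes compared on the *Fezf1* side and 0.682% on the *Rnd3* side. Of 13 semaphorins, plexins and neuropilins compared, none was higher in *Fezf1* cells. *Sema3e* was higher in *Rnd3* cells, where 37.5% and 50.0% of cells held it. *Sema3e* encodes a secreted ligand of plexin D1. Of 20 slits, netrins, ephrins and their receptors, *Slit2* was the only one called. This secreted repellent of Robo receptors was at 0, 251 and 1077 FPKM in the *Fezf1* cells of set a and at 0, 35.3 and 491 FPKM in those of set b, against 0, 10.2 and 648 FPKM and 0, 0 and 142 FPKM in *Rnd3* cells. Mean levels of *Slit2* were 325 and 81.5 FPKM against 54.2 and 16.6 FPKM, and the set a mean of *Rnd3* cells was 35 FPKM without the cell of 1 *Rnd3* fragment. The ranges of *Slit2* overlapped, as 7 of 38 and 8 of 46 *Fezf1* cells lay above every *Rnd3* cell of their set.

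*Sema6a*, a transmembrane semaphorin, and *Plxna2*, its plexin receptor, were not called. *Sema6a* was at median levels of 199 and 121 FPKM in *Fezf1* cells and 157 and 94.4 FPKM in *Rnd3* cells, with log2 ratios of 0.41 and 0.36. *Plxna2* had medians of 95 and 38 FPKM in *Fezf1* cells and 78 and 43.3 FPKM in *Rnd3* cells, and its log2 ratios of 0.36 and -0.09 differed in sign between sets. Both genes were in at least 97.1% of cells of each group and set. *Plxna4* was in 5 of 84 *Fezf1* cells and 3 of 66 *Rnd3* cells, with a highest value of 12.8 FPKM. *Flrt2*, an adhesion protein and ligand of Unc5 receptors, had log2 ratios of 0.34 and 0.02.

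Adhesion genes were called in both directions. Of 41 contactins, teneurins, latrophilins and other adhesion genes, 3 were higher in *Fezf1* cells (*Cntn5*, *L1cam* and *Cntnap4*) and 3 in *Rnd3* cells (*Igsf21*, *Tenm3* and *Chl1*). The list medians of the log2 ratio were 0.53 and 0.10, beside 0.15 and 0.13 over all genes compared. *Cntn5*, a contactin, was at 0, 152 and 743 FPKM in the *Fezf1* cells of set a and at 0.575, 113 and 1582 FPKM in those of set b. In *Rnd3* cells it was at 0, 26.1 and 368 FPKM and at 0, 0.840 and 303 FPKM, so that the groups overlapped while the means after adding 1 FPKM differed 4.64-fold and 5.11-fold. Its highest value came from the set b *Fezf1* cell that stood apart, and the mean of that set fell from 154 to 123 FPKM without it. *L1cam* was in 84.2% and 52.2% of *Fezf1* cells and 37.5% and 20.6% of *Rnd3* cells. *Cntnap4*, a neurexin-like protein, was in 55.3% and 52.2% of *Fezf1* cells and 15.6% and 8.82% of *Rnd3* cells, and its set a log2 ratio was 1.38 with all cells and 2.39 without the cell of 1 *Rnd3* fragment. Of 15 cadherins and protocadherins, *Cdh1* and *Pcdh15* were higher in *Rnd3* cells and none in *Fezf1* cells. *Pcdh15*, the tip-link protocadherin of hair cells, averaged 11.3 and 11.8 FPKM against 5.04 and 2.79 FPKM. None of 25 listed small GTPases of the cytoskeleton and their regulators was called, *Rnd3* itself being left out. That list did not hold *Arhgef17*, called higher in *Fezf1* cells, or *Arhgap26*, called higher in *Rnd3* cells.

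Each of the transcription factors *Zfhx3* and *Zfhx4*, large homeobox proteins of the same family, was called in the opposite direction to the other. *Zfhx3* was in 90.6% and 97.1% of *Rnd3* cells, at medians of 7.10 and 2.46 FPKM, and in 5.26% and 8.70% of *Fezf1* cells. *Zfhx4* was in 97.4% and 78.3% of *Fezf1* cells, at medians of 30.3 and 8.69 FPKM, and in 59.4% and 50.0% of *Rnd3* cells, at 0.574 and 0.183 FPKM. The call of *Zfhx4* rested on a set b log2 ratio of 1.02 and was lost when each cell was rescaled to the same FPKM sum. The other 13 of the 15 amacrine transcription factors compared were not called.

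*Gabra4*, a GABA receptor subunit, was the one of 13 acetylcholine and GABA receptor genes called, at medians of 49.3 and 7.78 FPKM in *Rnd3* cells against 0 in both sets of *Fezf1* cells. Its exons overlap those of *Gabrb1* on the opposite strand. *Grik2*, a kainate receptor subunit, was the one of 16 glutamate, glycine and purine receptor genes called, at medians of 50.5 and 19.8 FPKM in *Rnd3* cells against 7.14 and 0 FPKM. Both receptor subunits were called higher in *Rnd3* cells, beside 0.682% of all genes compared. For the acetylcholine and GABA receptors the list medians of the log2 ratio were 0.635 and 0.051. For the glutamate, glycine and purine receptors they were 0.513 and 0.458, beside 0.148 and 0.129 over all genes compared. Of 28 listed ion channels and chloride transporters, *Trpc4* and *Kcnb2* were higher in *Fezf1* cells. Channel genes called but not on that list included *Kcnk12* on the *Rnd3* side and *Kcnh2* and *Asic2* on the *Fezf1* side. *Kcnb2*, a delayed rectifier potassium channel subunit, had medians of 61.6 and 11.8 FPKM against 0 in both sets of *Rnd3* cells. A glycine receptor subunit gene, *Glra4*, and an ATP receptor gene, *P2rx2*, were sparse and not called. *Glra4* was in 18.4% and 6.52% of *Fezf1* cells and 3.12% and 2.94% of *Rnd3* cells, and *P2rx2* was in 7.89% and 17.4% of *Fezf1* cells and 18.8% and 0% of *Rnd3* cells.

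Of 33 synaptic vesicle genes and neuropeptides, 3 were higher in *Fezf1* cells (*Synpr*, *Pdyn* and *Nxph4*) and none in *Rnd3* cells, beside 1.17% and 0.682% of all genes compared. The list medians of the log2 ratio were 0.36 and 0.29, beside 0.15 and 0.13 over all genes compared. *Pdyn*, the precursor of the dynorphins, was in 86.8% and 76.1% of *Fezf1* cells, at medians of 113 and 71.2 FPKM. It was in 25% and 11.8% of *Rnd3* cells, with a median of 0. Its set a log2 ratio was 2.08 with all cells and 3.81 without the cell of 1 *Rnd3* fragment, which had the highest *Pdyn* level of its set. *Synpr*, a synaptic vesicle membrane protein, was abundant in both groups, with medians of 1080 and 825 FPKM in *Fezf1* cells against 165 and 248 FPKM in *Rnd3* cells. *Sst*, the somatostatin precursor, averaged 56 and 80.4 FPKM in *Fezf1* cells against 2.19 and 0 FPKM, but was in only 34.2% and 13% of *Fezf1* cells and missed the minimum share. *Cck* was at 0 in every cell of both groups, which allows shares of up to 3.57% of *Fezf1* cells and 4.55% of *Rnd3* cells.

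Of 30 calcium-binding and signalling genes, *Adcy2* was higher in *Fezf1* cells, and *Camk2d* and *Pde4b* were higher in *Rnd3* cells. *Adcy2*, an adenylyl cyclase that makes cyclic AMP, had medians of 51.5 and 16.7 FPKM in *Fezf1* cells against 7.11 and 0 FPKM. *Pde4b*, a phosphodiesterase that breaks cyclic AMP down, had medians of 34.5 and 33.7 FPKM in *Rnd3* cells against 0 in both sets of *Fezf1* cells. Of 28 listed growth factors and receptors, *Dkk3*, a secreted protein of the Dickkopf family, was the single call. It had means of 35.8 and 17 FPKM in *Fezf1* cells against 7.94 and 2.75 FPKM. The list did not hold *Gfra3*, described above, or *Pdgfc* and *Mstn*, which were also called higher in *Fezf1* cells. Over all 13 lists, 12 of 286 genes compared were called higher in *Fezf1* cells and 11 higher in *Rnd3* cells, beside 1.17% and 0.682% of all genes compared.

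No gene that defines starburst cells was called. For the 10 compared, log2 ratios ranged from -0.18 to 0.84 in set a and from -0.72 to 0.79 in set b. *Slc18a3*, the vesicular acetylcholine transporter, had medians of 852 and 716 FPKM in *Fezf1* cells and 723 and 665 FPKM in *Rnd3* cells. *Chat*, which makes acetylcholine, had medians of 229 and 153 FPKM and 235 and 169 FPKM. *Gad1*, which makes GABA, had log2 ratios of 0.44 and 0.35. *Isl1*, a homeobox factor that starburst cells keep, had medians of 1408 and 1343 FPKM in *Fezf1* cells and 1274 and 1436 FPKM in *Rnd3* cells. *Megf10*, a receptor of starburst cell spacing, had log2 ratios of 0.34 and -0.04. With no replicate of a group, these values do not show that the levels were equal.

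Counting cells instead of levels gave a different balance. Of 16705 genes found in any P8 cell, 28 were present in more *Fezf1* cells by at least 25 percentage points in both sets, 0.168% of the genes. In the other direction, 83 genes were present in more *Rnd3* cells, 0.497% of the genes. Of these, 23 and 46 were also called by level. The larger number of genes detected per *Rnd3* cell moves with this balance. After each cell was thinned to 350000 fragments, which left out 2 set b *Fezf1* cells, the counts were 28 and 74. *Sox9* had the largest smaller difference on the *Fezf1* side, in 90.5% of *Fezf1* cells (exact 95% interval 82.1 to 95.8%) and 10.6% of *Rnd3* cells (4.37 to 20.6%). It was followed by *Trpc4*, *Pdyn*, *Pmfbp1* and *Gfra3*. On the *Rnd3* side, *Tenm3* was in 97.0% of *Rnd3* cells (89.5 to 99.6%) and 4.76% of *Fezf1* cells (1.31 to 11.7%), followed by *Igsf21*, *Zfhx3*, *Gpr26* and *Egfem1*.

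**Figure D3:**
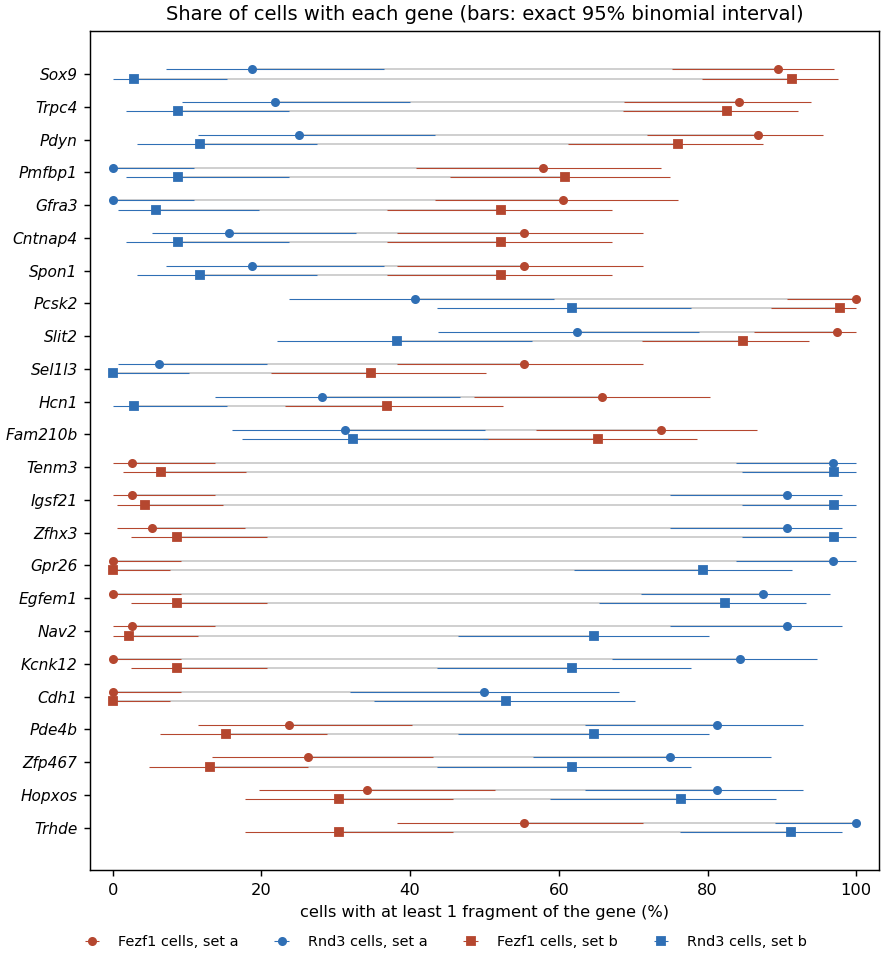
The x axis gives the percentage of cells with at least 1 fragment of a gene, for the 12 genes of each direction with the largest smaller difference; red marks are *Fezf1* cells and blue marks *Rnd3* cells, circles are set a and squares set b, and bars are exact 95% binomial intervals. The intervals of the groups do not overlap in either set for *Sox9* or *Tenm3*, while for *Fam210b* and *Hopxos* the groups are closer.

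Genes chosen in one set were then counted in the cells of the other. From each set the 20 largest ratios of each direction were taken, and each cell of the other set was scored as the number of *Fezf1*-side genes present minus the number of *Rnd3*-side genes present. With genes from set a, the 46 *Fezf1* cells of set b scored 2, 6 and 13 (lowest, median and highest) and the 34 *Rnd3* cells scored -11, -6 and -1, so the groups did not overlap. With genes from set b, the 38 *Fezf1* cells of set a scored 7, 11 and 13 and the 32 *Rnd3* cells scored -11, -6 and 9. The single *Rnd3* cell above 0 was the one with 1 *Rnd3* fragment. In all, 149 of 150 cells were on the side of the gene that chose them, and 145 of 148 were when both cells that stood apart were left out before the genes were chosen. Of the 20 genes per list, 17 *Fezf1*-side and 19 *Rnd3*-side genes from set a kept their direction in set b, and 16 and 20 from set b did so in set a.

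All 21 cells with neither gene scored on the *Fezf1* side, at 2, 6 and 10 in set b and at 7, 11 and 15 in set a. The cell with both genes (81 fragments of *Fezf1* and 5 of *Rnd3*) scored 10. Among the 21 cells, 20 held *Pcsk2*, 21 held *Nptx1*, 19 held *Trpc4* and 18 held *Sox9*, whereas 1 held *Tenm3* and 1 held *Igsf21*. None held *Cdh1*, *Gpr26* or *Kcnk12*. By the called genes, cells with neither held medians of 72 and 64.5 of the 108 *Fezf1*-side genes in sets a and b, beside 74 and 66 in *Fezf1* cells and 51.5 and 38.5 in *Rnd3* cells. Of the 63 *Rnd3*-side genes they held 17 and 13, beside 16 and 14 in *Fezf1* cells and 44 and 38 in *Rnd3* cells. The 108 and 63 genes were called from these same *Fezf1* and *Rnd3* cells, so the gap between those groups follows from the choice. Cells with neither gene took no part in it.

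**Figure D4:**
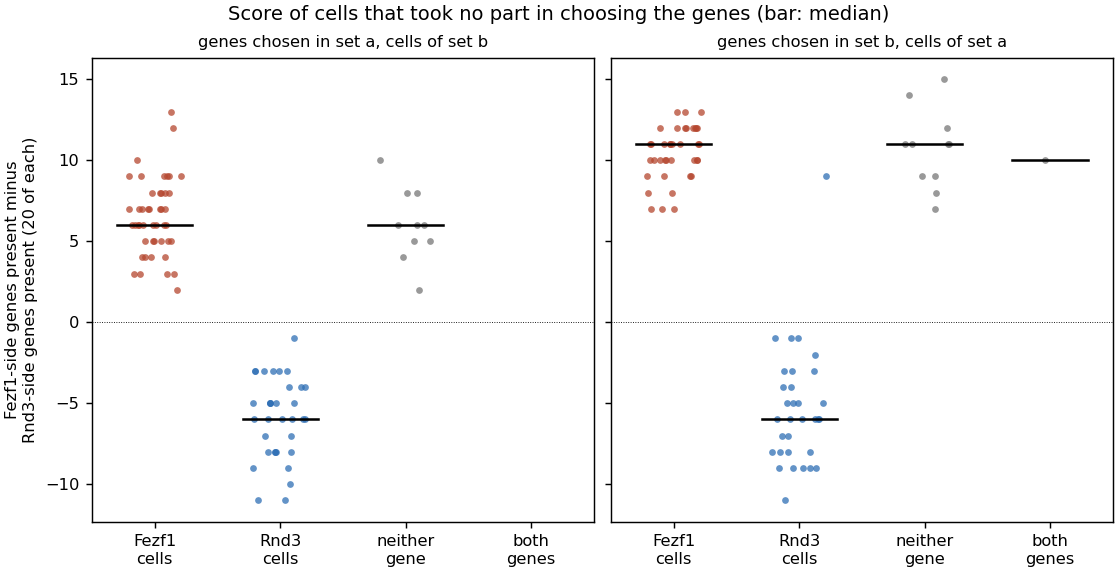
The y axis is the number of *Fezf1*-side genes present minus the number of *Rnd3*-side genes present (20 of each) in each cell, with genes chosen in set a and cells of set b at the left and the reverse at the right; bars are medians. *Fezf1* cells and cells with neither gene lie above 0, and *Rnd3* cells lie below 0 with the exception of 1 set a cell at 9.

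Cells of other ages took no part in the choice of the P8 genes. The same rule gave 46 *Fezf1* and 70 *Rnd3* cells at P1, 47 and 113 at P4, and 24 and 97 at P11. Of the 108 *Fezf1*-side genes, 50.9% were higher in *Fezf1* cells in both sets at P1, 64.8% at P4 and 62% at P11, beside 26.9%, 37% and 20.3% of all genes compared. Of the 63 *Rnd3*-side genes, 54%, 79.4% and 82.5% were higher in *Rnd3* cells, beside 24%, 18.5% and 33.7% of all genes compared. At least 2-fold in both sets were 25, 35 and 29 *Fezf1*-side genes and 19, 24 and 34 *Rnd3*-side genes at P1, P4 and P11. Over all genes compared, 2.2%, 1.70% and 1.69% were at least 2-fold higher in *Fezf1* cells in both sets at these ages, and 2.49%, 1.32% and 5.86% in *Rnd3* cells. Cell numbers differ between ages, and whether the counts change with age was not tested.

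*Igsf21* and *Tenm3* had log2 ratios of -5.32 or lower at P1, P4 and P11 in both sets. *Kcnk12* had log2 ratios of -1.17 and -1.02 at P1, -0.88 and -1.65 at P4 and -3 and -4.91 at P11. *Crabp1*, a retinoic acid-binding protein called on the *Rnd3* side at P8 (log2 ratios of -2.82 and -2.58), had ratios of 1.59 and -0.63 at P1 and -6.42 and -4.45 at P11. On the *Fezf1* side, *Gfra3*, *Rasgrp1*, *Pcsk2*, *Trpc4* and *Nptx1* had positive ratios in both sets of every age. *Sel1l3* was listed at 0 in both groups at P1 and had ratios of 3.31 and 1.42 at P11. *Synpr* had log2 ratios of 3.48 and 1.90 at P4 and -0.02 and 0.72 at P11, where its mean levels were 593 and 917 FPKM in *Fezf1* cells and 600 and 555 FPKM in *Rnd3* cells.

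**Figure D5:**
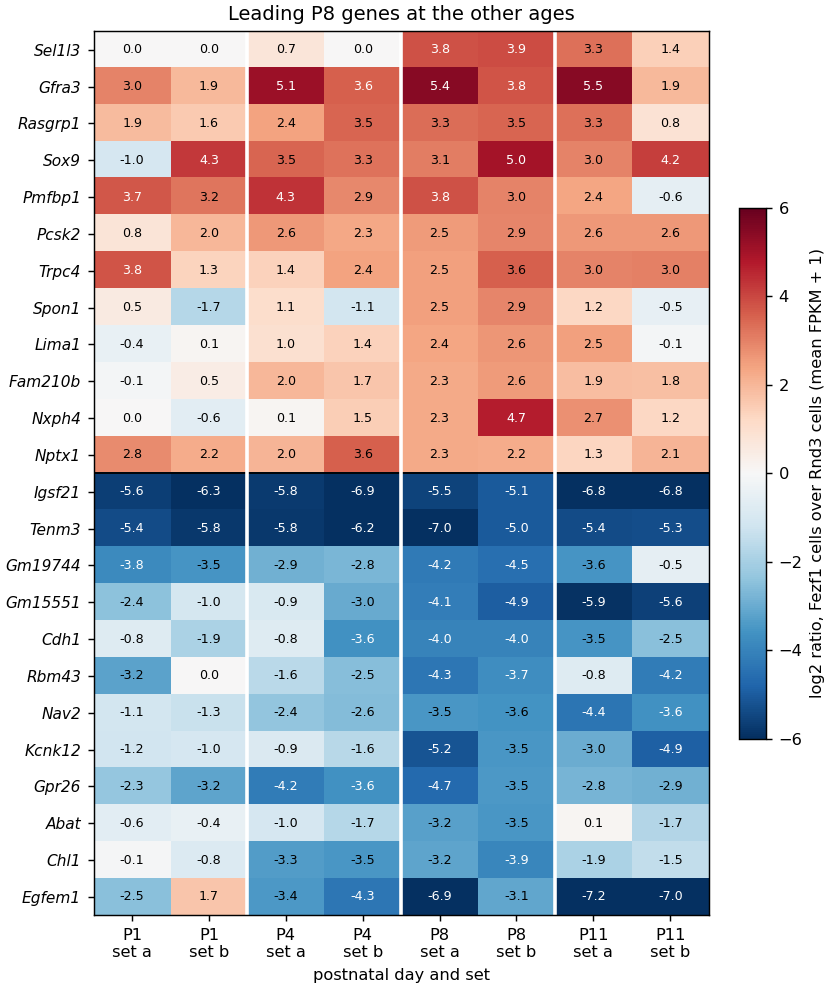
Rows are the 12 leading genes of each direction at P8 and columns are the sets of P1, P4, P8 and P11; colour and number give the log2 ratio of mean FPKM + 1, *Fezf1* cells over *Rnd3* cells. *Igsf21* and *Tenm3* are below -5 in all 8 columns, while *Sel1l3*, *Nxph4* and *Spon1* are near 0 or of mixed sign at P1. In P1 sets a and b the sign also differs for *Sox9* (-0.99 and 4.25), *Fam210b* (-0.13 and 0.45) and *Egfem1* (-2.50 and 1.67).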

How the data were processed

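The authors sorted single tdTomato cells, sequenced Smart-seq2 libraries as paired-end reads, aligned them to GRCm38.p6 (mm10) with HISAT2 2.1.0 and quantified genes with Cufflinks 2.2.1 and Cuffnorm. SAMtools 1.3.1 is also named in the submitters' notes; the annotation release is not given in the sources used here. The deposited gene values are a signal (fragments divided by a scale factor of the cell), and the deposited scale factor is a ratio. Their product was within 0.01 of a whole number for 95.1% of non-zero values, against 6.96% as deposited, and was used as fragments. The deposited FPKM values (fragments per length of transcript and depth of library, scaled by the authors) were used for levels.

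Each cell is 1 GEO sample. Groups came from fragments of *Fezf1* and *Rnd3*, as the report states, and the ON and OFF words of the titles were not used. Of 29548 genes, 9238 passed a mean of 5 FPKM. Ratios were log2 of mean FPKM + 1, which understates the change of low genes, and no test was made. Members, lists and rules were chosen with earlier results of these data known. The text names the 12 leading genes of each direction by the smaller ratio of both sets, called list members, 14 chosen genes and 5 leading shares of each direction; other genes were named after their values were seen. *Sst*, *Crabp1*, *Ldha* and *Tpi1* are among these. Gene positions are from GENCODE vM21 (GRCm38), which matched 29279 genes. Shares carry exact Clopper-Pearson intervals. Reads without molecular identifiers are not independent molecules. Exons of 34 of 108 and 21 of 63 called genes overlap another gene. Python 3.11.15, pandas 2.3.3 and scipy 1.17.1 were used.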

Additional observations from a re-analysis of the deposited data

Results flagged for a closer look

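Of the 108 genes called higher in *Fezf1* cells at P8, 13 had the opposite sign in both sets at P1, 11 at P4 and 9 at P11, at least 2-fold for 3, 0 and 2 of them; of the 63 called higher in *Rnd3* cells, 1, 2 and 0 did. These differences between ages were not tested. The genes below are those past 2-fold, and *Dkk3*, which the report names. At P11 the mean log2 ratio of both sets was -0.30 for *Dkk3*, -1.77 for *Cep85l* and -1.62 for *Tph1*. At P1 it was -1.69 for *Sun2*, -2.71 for *Mstn* and -1.29 for *Fam132a*. *Mstn* averaged 0 and 2.74 FPKM in the *Fezf1* cells of P1 sets a and b, and 12.6 and 10.8 FPKM in the *Rnd3* cells. *Dkk3* averaged 6.59 and 3.03 FPKM in P11 *Fezf1* cells and 7.17 and 4.70 FPKM in P11 *Rnd3* cells.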

How the results depend on the processing

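No direction of the 41 named genes that were called was reversed under 17 settings. Named genes that were not called were left out of the check of direction. Against the mean of both sets, *Plxna2*, *Megf10* and *Chat* changed sign in set b alone. *P2rx2* did so in set a alone, with a log2 ratio of -0.53 beside a mean of 1.14. Of 901 values of all 53 named genes, 687 stayed within the SD between sets and 214 moved beyond it. For set a alone and set b alone this outcome was fixed in advance, because either set lies within that SD of their mean. The counts of genes higher in *Fezf1* and *Rnd3* cells (108 and 63) became 42 and 24 with a pseudocount of 10 FPKM, 67 and 34 with a mean of at least 20 FPKM, 173 and 96 without a minimum share, 20 and 20 at 4-fold, 274 and 127 with both sets pooled, 547 and 285 in set a alone and 490 and 221 in set b alone. The *Rnd3* side had 309 genes with medians over cells and 138 with the mean of log2 values (131 and 102 on the *Fezf1* side), so the side with more calls changes with how cells are summarised. The cause was not tested. At a difference of 50 percentage points, 4 and 8 genes were present in more *Fezf1* and *Rnd3* cells. Leaving out each cell that stood apart and subtracting the median ratio were chosen after seeing the data. *Csrp3* had a set b log2 ratio of 1.44 with all cells and 0.90 without the set b *Fezf1* cell of the highest FPKM sum, and was 1 of 9 calls lost without both cells. Other alternatives kept these counts within 1.5 times. No paired analysis was possible because the groups are cells of the same pools, carry no shared replicate numbers and were not tested. With 1 pool of mice, differences between animals cannot be told from differences between cells, and shares of sparse genes are limited by depth.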

Other observations

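The gene lists that follow were put together after their values were seen, so they are descriptions. Of 19 glycolytic enzymes and transporters compared, 13 were lower and 3 higher in *Fezf1* cells in both sets, with median log2 ratios of -0.39 and -0.78, beside 0.15 and 0.13 over all genes. Over all genes compared, 17.6% were lower in *Fezf1* cells in both sets. *Ldha*, which makes lactate, was at medians of 286 and 253 FPKM in *Fezf1* cells and 1138 and 1119 FPKM in *Rnd3* cells. *Ldha* and *Tpi1* were the 2 members called higher in *Rnd3* cells, beside 0.682% of all genes compared, with log2 ratios of -1.94 and -1.88 for *Ldha* and -1.01 and -1.18 for *Tpi1*. *Ldha* was also lower in *Fezf1* cells in both sets of P1, P4 and P11, with log2 ratios between -1.16 and -2.30.

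Of 10 genes of prohormone processing and secretory granules compared, *Pcsk2*, *Pam* and *Rab27b* were called higher in *Fezf1* cells, and 5 of the 10 were higher there in both sets, beside 1.17% and 41.5% of all genes compared. *Pam*, which amidates peptides, had log2 ratios of 3.49 and 1.42. Its set a mean in *Rnd3* cells was 0.156 FPKM with all cells and 0.095 FPKM without the cell of 1 *Rnd3* fragment. *Chgb*, a granin, had log2 ratios of -0.40 and -0.48.

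Of 5 immediate early genes compared, *Egr1* was called higher in *Rnd3* cells (log2 ratios of -1.49 and -1.53), and 3 of 5 were lower in *Fezf1* cells in both sets, beside 0.682% and 17.6% of all genes compared.

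Within 1 Mb of *Rnd3* on chromosome 2, 3 of 8 genes compared were called higher in *Rnd3* cells: *Rbm43*, *1700057H21Rik* and *Gm13499*. Over all genes compared the share was 0.682%, and the region was picked because its gene chose the cells. One gene within 1 Mb of *Fezf1*, *Fam3c*, was compared and it was not called.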
